A study of Mus musculus with 16 samples.

Results

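The basement membrane is a thin sheet of extracellular matrix that, in the spinal cord, surrounds blood vessels and lies beneath the astrocyte endfeet at the tissue surface. It is built from a laminin network and a type IV collagen network, which nidogens and the heparan sulfate proteoglycan perlecan hold together. A laminin molecule is a trimer of an alpha, a beta and a gamma chain, and the type IV collagen of vessels is a trimer of alpha 1 and alpha 2 chains. The genes described are 10 symbols of this sheet among the 18167 genes of the expression table, all 10 of them measured: the nidogens Nid1 and Nid2, the laminin alpha chains Lama2 and Lama4, the beta chains Lamb1 and Lamb2, the gamma chain Lamc1, the collagen chains Col4a1 and Col4a2, and Hspg2, which encodes perlecan. They were selected by symbol, and the set was chosen from the readout in 1 respect: Nid1 is among the largest decreases from young to end-stage mutant mice. Values of that contrast are therefore given as a description, without a test, for every member.

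Spinal cord RNA was sequenced from 16 mice labelled male, 1 library per mouse. MY and MO mice, of the line Tg(Prnp-PFN1*G118V)838Kiaei on a C57BL/6N background, carry human profilin 1 (hPFN1) with the amyotrophic lateral sclerosis mutation G118V. WY and WO mice, of the line Tg(Prnp-PFN1)850Kiaei on the same background, carry the unchanged human gene. Human profilin 1 is thus present in all 4 groups, driven by the mouse prion protein promoter of the MoPrP.Xho vector, and each genotype is a single transgenic line. WY (n = 3) and MY (n = 3) mice were 50 days old, WO mice (n = 5) were 190 to 294 days old, and MO mice (n = 5) were 175 to 245 days old and at end-stage, when they could no longer right themselves. Libraries came in 2 batches. All young mice were in batch 1, and WO4, WO5, MO4 and MO5 formed batch 2; WO4 and WO5 were also the only mice 294 days old, so that batch and age cannot be told apart within WO. Values are log2(1 + FPKM), where FPKM is the number of fragments of a gene scaled by transcript length and library size, after the authors' adjustment for batch. The table holds no read numbers, so the depth behind each gene is not known from it and precision rests on the spread between mice. Because 1 is added to FPKM, fold changes of genes with low values are understated.

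The library MO5 went against its label. Xist, transcribed from the inactive X chromosome of females, had a value of 3.21 in MO5 and of at most 0.37 in the other 15 mice. The Y-linked gene Ddx3y had a value of 1.95 in MO5 and of at least 4.06 in the others. Calls in WO vs. MO are therefore also given without MO5, while levels, sums and shares of MO include it. Spinal cord markers fitted the tissue label: the most abundant gene of 6 Hox genes of cord position was Hoxd8, with a mean of 5.25 over the 16 mice, and the motor neuron list was led by Prph at 5.81. Of the sensory neuron markers, Scn10a, Scn11a and Prdm12 had means of 0.0063, 0.023 and 0.026 and Avil one of 0.38. Of the skeletal muscle markers, Myh4 (0.011), Myh1 (0.020) and Ckm (0.071) were low and Tnnt3 (0.27), Acta1 (0.59) and Mylpf (1.57) higher, so that a small amount of such tissue is not excluded.

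Levels of the 10 genes can be compared with each other because FPKM is per transcript length. Col4a2 was the most abundant, with a mean of 9.49 FPKM over the 16 mice, followed by Lamc1 (8.30), Lamb2 (8.03), Nid1 (7.84) and Col4a1 (5.75). Lamb1 (1.62), Lama2 (1.42) and Hspg2 (1.13) were lower, and Nid2 (0.85) and Lama4 (0.83) were the least abundant. On the log2(1 + FPKM) scale Col4a2 lay at percentile 59.3 of all genes and Nid2 at percentile 23.7. Were low genes dropped at a mean log2(1 + FPKM) under 1, the filter would pass 8 of the 10 members and remove Nid2 and Lama4.

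Nid1 encodes nidogen-1, the rod-shaped glycoprotein that binds the laminin gamma 1 chain and type IV collagen and so links the networks. It had the widest range of the 10 genes over the mice. Its values were 3.64, 3.85 and 3.78 in the WY mice and 3.75, 3.73 and 3.63 in the MY mice. They were 2.74, 2.72 and 2.72 in WO1, WO2 and WO3 and 3.41 and 3.20 in WO4 and WO5. In MO1, MO2 and MO3 they were 1.56, 1.85 and 1.95, and in MO4 and MO5 2.63 and 2.41. Young mice of both genotypes were thus high and overlapped, every old control was below every young mouse, and every end-stage mutant was below every old control. Within each old group the batch 2 mice were the highest. In FPKM the group means were 12.6 ± 1.03 (SD, n = 3) in WY, 12.0 ± 0.57 (SD, n = 3) in MY, 6.93 ± 1.87 (SD, n = 5) in WO and 3.39 ± 1.33 (SD, n = 5) in MO.

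The difference of Nid1 between MY and MO, which chose it, was -1.62 in log2 units, or 3.08-fold, from a mean of 3.70 ± 0.064 (SD, n = 3) to 2.08 ± 0.43 (SD, n = 5). It was the fall of rank 9 among the 18167 genes, and of rank 3 among the 2889 genes (15.9%) whose MO mice were all below the MY mice. With batch 1 alone the difference was -1.92, and without MO5 -1.70. The other members differed less between MY and MO. All MO mice were above all MY mice for 2 members, Nid2 (difference 0.54) and Lamb2 (0.64), beside 2846 of all genes (15.7%), and below for 2, Nid1 and Lamc1 (-0.30). Groups overlapped for the other 6, with differences of -0.23 for Col4a2, -0.19 for Col4a1, -0.16 for Lama4, -0.15 for Lamb1, -0.14 for Hspg2 and -0.03 for Lama2. Without MO5, 6 members had all MO mice below all MY mice, as did 17.8% of all genes, and with batch 1 alone 6 and 21.2%. Nothing is read from these counts, as the contrast is the one by which Nid1 was chosen.

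**Figure D1:**
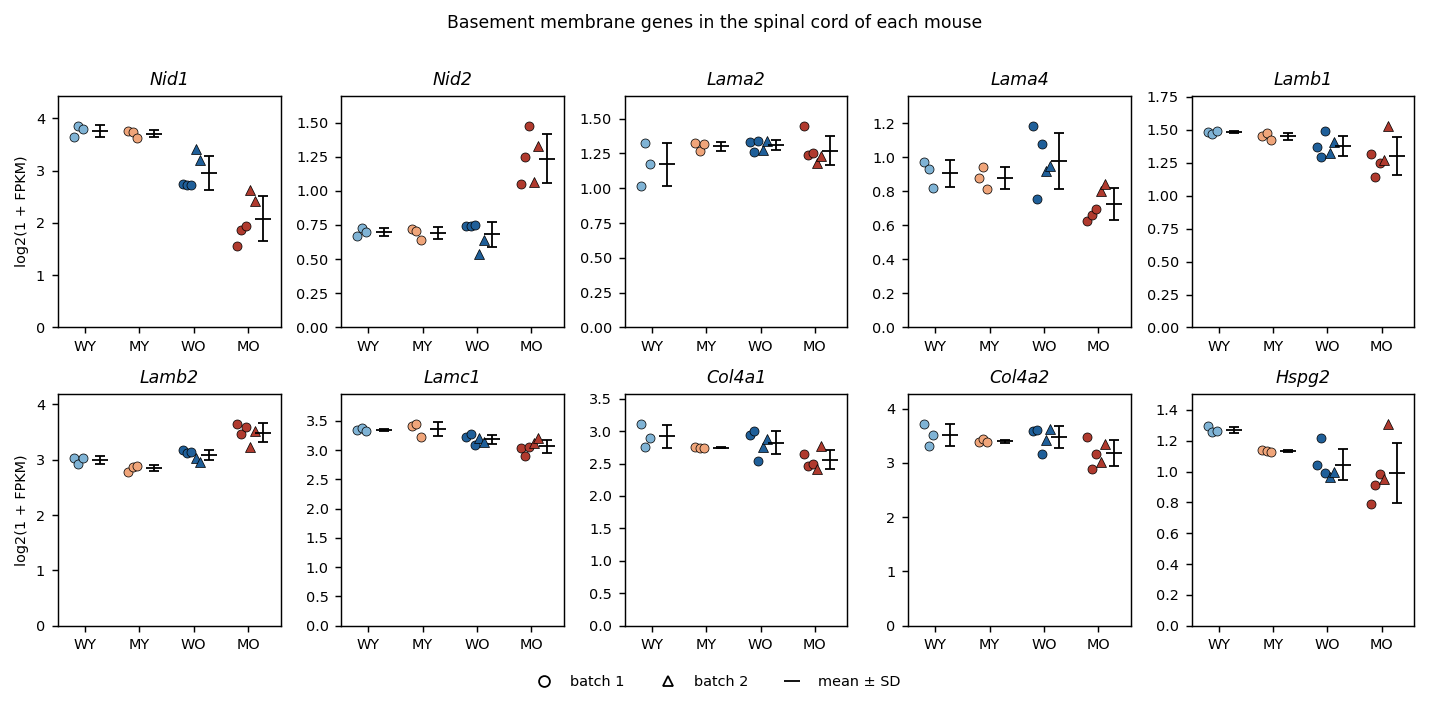
Expression of the 10 basement membrane genes in each mouse, as log2(1 + FPKM) on the vertical axis from 0, for young controls (WY), young mutants (MY), old controls (WO) and end-stage mutants (MO); circles are batch 1, triangles batch 2, and bars the group mean ± SD. Nid1 is between 3.63 and 3.85 in the 6 young mice and between 1.56 and 2.63 in the 5 MO mice, while Nid2 is at least 1.05 in the MO mice and at most 0.75 in all others.

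End-stage mutants were next compared with old controls (WO vs. MO), which sets the genotypes side by side in old mice. Ages differed in part, at 190 to 294 days in WO and 175 to 245 days in MO. This comparison shares the 5 MO mice with MY vs. MO and is not independent of the choice of Nid1. At a false discovery rate (FDR) at or below 0.05 in limma, 2 members rose in MO (Nid2 and Lamb2) and 2 fell (Nid1 and Lama4), while 6 passed in neither direction. Of all 18167 genes, 2730 (15%) rose and 2345 (12.9%) fell, so that 2 of 10 in each direction is near the share among all genes. With an added fold change of at least 1.5, Nid1 alone of the members was called, beside 94 genes (0.517%) that fell by this rule and 742 (4.08%) that rose. Of the calls over all genes 53.8% were rises, and 40.7% after quantile normalization. All MO mice were above all WO mice for 2 members, Nid2 and Lamb2, and for 2051 of all genes (11.3%). They were below for 1 member, Nid1, and for 1571 of all genes (8.65%). The median log2 fold change was -0.10 over the members and 0.0004 over all genes. Without MO5 the same 4 members passed FDR 0.05, and Col4a1 with them.

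Nid1 fell by 0.88 on the log2 scale (SE 0.21, FDR 0.0113), from 2.96 ± 0.33 (SD, n = 5) in WO to 2.08 ± 0.43 (SD, n = 5) in MO, a 1.84-fold change. All 5 MO mice lay below the 5 WO mice. Within batch 1 (3 against 3 mice) the difference was -0.94, and within batch 2 (2 against 2 mice) it was -0.78. The change without MO5 was -0.96 (FDR 0.0122).

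Nid2 encodes nidogen-2, the second vertebrate nidogen, with the same domain plan as nidogen-1. It moved the other way. Its values were 0.67, 0.73 and 0.70 in WY, 0.72, 0.71 and 0.64 in MY, and 0.74, 0.74, 0.75, 0.54 and 0.64 in WO. In the MO mice they were 1.05, 1.25, 1.48, 1.06 and 1.33. The 11 mice outside MO thus shared a narrow band, and all 5 MO mice were above it. Nid2 rose by 0.55 in log2 units (SE 0.083, FDR 0.000725), or 1.47-fold, from 0.68 ± 0.093 (SD, n = 5) in WO to 1.23 ± 0.18 (SD, n = 5) in MO. The difference was 0.52 within batch 1 and 0.61 within batch 2, and the change without MO5 was 0.53 (FDR 0.00243). With a pseudocount of 0.1 FPKM in place of 1 it was 1.04, the fold change of a gene near 1 FPKM being compressed by the larger constant. The annotation places 437 of the 5174 exon bases of Nid2 over exons of Rtraf on the opposite strand. Libraries were strand-specific, but whether counting used strand is not given in the sources used here. Rtraf, listed under an older symbol, was at 5.95 ± 0.096 (SD, n = 5) in WO and 6.08 ± 0.14 (SD, n = 5) in MO, with a log2 fold change of 0.13 (SE 0.072, FDR 0.222).

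Together the nidogens changed in makeup. Nid2 made up 4.74% ± 0.16 (SD, n = 3) of summed nidogen FPKM in WY, 4.85% ± 0.14 (SD, n = 3) in MY, 8.59% ± 2.99 (SD, n = 5) in WO and 30.3% ± 8.64 (SD, n = 5) in MO. Its lowest share among MO mice was 17.3% and its highest among WO mice 10.9%, so that the old groups did not overlap. Nid1 remained the more abundant nidogen in every mouse, with an excess over Nid2 of 0.47 to 1.57 log2 units in MO and of 1.97 to 2.87 in WO.

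Lamb2 encodes the laminin beta 2 chain, found at neuromuscular junctions and in vessels. It was 3.02, 2.91 and 3.04 in WY and 2.78, 2.87 and 2.89 in MY. The WO mice had 3.18, 3.12, 3.14, 3.03 and 2.96, and the MO mice 3.64, 3.47, 3.60, 3.22 and 3.53. All MO mice were above all other mice, with MO4 nearest to them. Lamb2 rose by 0.40 (SE 0.078, FDR 0.00309), or 1.32-fold, with 0.42 within batch 1, 0.38 within batch 2 and 0.40 (FDR 0.00866) without MO5. For the other beta chain, Lamb1, the change was -0.074 (SE 0.068, FDR 0.480), with overlapping groups; it was -0.15 within batch 1, 0.037 within batch 2 and -0.13 (FDR 0.0949) without MO5. The share of Lamb2 in the summed FPKM of both beta chains was 82.4% ± 1.54 (SD, n = 5) in WO and 87.4% ± 2.11 (SD, n = 5) in MO, after 79.5% ± 0.72 (SD, n = 3) in WY and 78.1% ± 1.04 (SD, n = 3) in MY.

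Lama4, the alpha 4 chain of endothelial laminin, was 1.19, 0.75, 1.08, 0.92 and 0.95 in WO and 0.62, 0.66, 0.69, 0.80 and 0.84 in MO. WO2 lay among the MO mice, and the other WO mice above them. Lama4 fell by 0.25 (SE 0.079, FDR 0.0346), 1.19-fold, and this call was fragile: FDR was 0.0501 to 0.0764 on leaving out MO1, MO2, MO3, WO1, WO3, WO4 or WO5, and 0.0916 with batch 1 alone. The difference was -0.35 within batch 1 and -0.11 within batch 2, the change without MO5 was -0.28 (FDR 0.0323), and with a pseudocount of 0.1 FPKM it was -0.50 (FDR 0.0335). Lama2, the alpha 2 chain found around vessels and in muscle and nerve, changed by -0.039 (SE 0.050, FDR 0.629). Lamc1, the gamma 1 chain shared by most laminins, changed by -0.13 (SE 0.059, FDR 0.149), with a difference of -0.20 within batch 1 and -0.0086 within batch 2.

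Col4a1 and Col4a2 lie head to head and moved together from mouse to mouse. Col4a1 was 2.94, 3.00, 2.54, 2.76 and 2.88 in WO and 2.65, 2.47, 2.50, 2.41 and 2.76 in MO. Col4a2 was 3.59, 3.60, 3.15, 3.43 and 3.63 in WO and 3.47, 2.89, 3.16, 3.01 and 3.34 in MO. WO3 was the lowest control for both genes, and the groups overlapped. Neither passed the test, with log2 fold changes of -0.27 (SE 0.095, FDR 0.0603) for Col4a1 and -0.31 (SE 0.12, FDR 0.0944) for Col4a2. Col4a1 passed in 6 of 18 alternatives: without WO3 (FDR 0.013), without MO5 (0.0326), after quantile normalization (0.0252), with all groups in 1 fit (0.0387), with the replicate block (0.0489) and with the filter on low values (0.0499). Col4a2 passed in 2 of 18, without WO3 (0.0331) and without MO1 (0.0362). Over the settings tried FDR ran from 0.013 to 0.196 for Col4a1 and from 0.0331 to 0.375 for Col4a2. Pearson's r between the pair was 0.92 over the 16 mice and 0.88 after subtracting group means. The ratio of Col4a2 to Col4a1 in FPKM was 1.58 ± 0.039 (SD, n = 3) in WY, 1.68 ± 0.049 (SD, n = 3) in MY, 1.67 ± 0.076 (SD, n = 5) in WO and 1.65 ± 0.19 (SD, n = 5) in MO. Hspg2 was at 1.04 ± 0.10 (SD, n = 5) in WO and 0.99 ± 0.19 (SD, n = 5) in MO (log2 fold change -0.054, SE 0.089, FDR 0.716), and its highest old mouse was MO5 at 1.31. The difference was -0.19 within batch 1 and 0.15 within batch 2, and the change without MO5 was -0.13 (FDR 0.144).

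**Figure D2:**
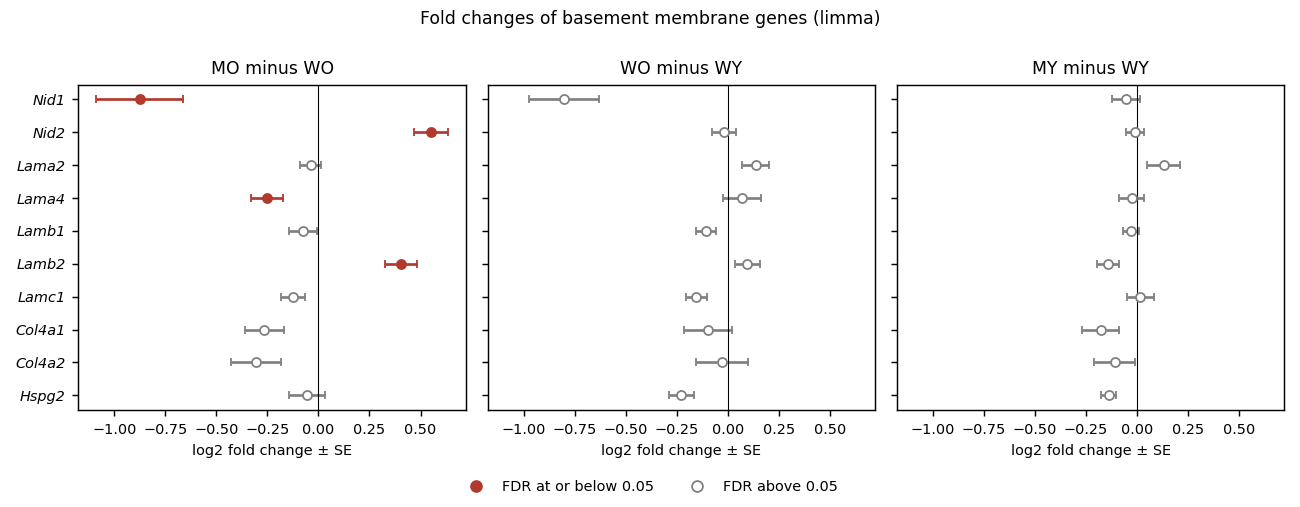
Log2 fold change ± SE from limma on the horizontal axis for each of the 10 genes in MO minus WO, WO minus WY and MY minus WY; filled red points have FDR at or below 0.05 over all 18167 genes. Nid1 (-0.88) and Lama4 (-0.25) are to the left and Nid2 (0.55) and Lamb2 (0.40) to the right in MO minus WO, and no point is filled in the other comparisons.

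Ageing in controls (WY vs. WO) shares no mouse with the contrast that chose Nid1. No member passed FDR 0.05 in limma, against 42 of all genes (0.231%) higher and 162 (0.892%) lower in WO. An unadjusted p under 0.05 was found for 3 of the 10 members, Nid1, Hspg2 and Lamc1, and for 13.5% of all genes. Nid1 came nearest, with a log2 fold change of -0.80 (SE 0.17, FDR 0.0764), 1.74-fold, and no overlap between groups. With batch 1 alone, 3 against 3 mice, it was -1.03 (FDR 0.00417), with batch as a term of the fit -1.03 (FDR 0.00172), without WO4 -0.91 (FDR 0.0273) and without WO5 -0.86 (FDR 0.0987); over all settings FDR ran from 0.00172 to 0.228. No WY mouse was in batch 2, so the fit with batch as a term rests on the same difference as batch 1 alone. The call thus depends on how the batch 2 controls are treated. Hspg2 differed by -0.23 (SE 0.060, FDR 0.132) and Lamc1 by -0.15 (SE 0.051, FDR 0.225), both without overlap between groups. Every WO mouse was below every WY mouse for these 3 members and for 5.86% of all genes. Nid2 and Lamb2, which rose at end-stage, had log2 fold changes of -0.018 (SE 0.058, FDR 0.947) and 0.096 (SE 0.060, FDR 0.562).

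In young mice (WY vs. MY) the question is whether the genotypes differ before disease; MY mice are shared with the contrast that chose Nid1. No member passed limma at FDR 0.05, and of all genes 1 (0.0055%) was higher and 0 (0%) were lower in MY. An unadjusted p under 0.05 was found for 2 members, Hspg2 and Lamb2, and for 7.16% of all genes. Nid1 differed by -0.055 (SE 0.069, FDR 0.831) and Nid2 by -0.0092 (SE 0.043, FDR 0.967). Hspg2 was 1.29, 1.26 and 1.26 in WY and 1.14, 1.13 and 1.13 in MY, a difference of -0.14 (SE 0.037, FDR 0.573) without overlap. Lamb2 was lower in every MY mouse than in every WY mouse, by 0.14 in group means (log2 fold change -0.14, SE 0.054, FDR 0.676), the direction opposite to that in old mice. Col4a1 was also lower in every MY mouse than in every WY mouse, with the largest difference of the 3 (-0.18, SE 0.089, FDR 0.711). Of all genes 7.52% had every MY mouse below every WY mouse, and 6.15% above. Whether genotype differences changed between ages was not tested, because that contrast contains the one by which Nid1 was chosen.

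Batch 2 values of Nid1 were the higher in both old groups of the deposited, batch-adjusted values. Batch 1 holds all young mice and batch 2 only old mice, so the adjustment was made between batches of unlike age. The batch 2 mean exceeded that of batch 1 by 0.58 in WO and by 0.73 in MO. Larger rises were found for 26 of 18167 genes (0.143%) in WO and 29 (0.160%) in MO, and the median over all genes was -0.0004 and -0.0011. For the other members these differences ran from -0.16 (Nid2) to 0.083 (Col4a2) in WO and from -0.20 (Lamb2) to 0.24 (Hspg2) in MO. The part of batch, or of its adjustment, in the level of Nid1 was not tested beyond the within-batch values and the fits given.

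The genes whose pattern was most like that of Nid1 were sought among the 13529 other genes that pass the filter on low values. Over the 16 mice the 4 highest Pearson's r were those of Fa2h (0.989), the fatty acid 2-hydroxylase, Pigq (0.984), an enzyme of GPI anchor synthesis, Ldlrad3 (0.984) and Hmgcs1 (0.984), a synthase of the mevalonate pathway. After subtracting group means the 5 highest were Enpp6 (0.964), Hmgcs1 (0.943), Pigq (0.937), Fa2h (0.935) and Rnf122 (0.929). With the 12 mice of batch 1, Hmgcs1 and Fa2h were again among the 5 highest. These mice share groups and batches, so the r are a description. Subtracting group means leaves the batch difference within WO (0.58 for Nid1) and MO (0.73) in place. The r after it therefore do not show covariation of mice apart from batch. Among the members, Lamc1 had r = 0.85 with Nid1 (rank 366) and Lamb2 r = -0.93; after subtracting group means these were 0.41 (rank 1379) and -0.78.

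Markers of more than 1 glial type fell with age in controls. Nid1 was also lower in every WO than in every WY mouse, but did not pass the test (FDR 0.0764 in limma). In WY vs. WO the astrocyte markers Gfap (-0.54, SE 0.088, FDR 0.0345) and Aqp4 (-0.65, SE 0.099, FDR 0.0281) fell, 2 of 5, and of the oligodendrocyte markers Mog (-0.77, SE 0.10, FDR 0.0178), Cnp (-0.53, SE 0.091, FDR 0.0418) and Mag (-0.36, SE 0.052, FDR 0.0239) did, all with every WO mouse below every WY mouse. In WO vs. MO these oligodendrocyte genes did not pass the test, with log2 fold changes of -0.30 (SE 0.17, FDR 0.239) for Mog, -0.19 (SE 0.13, FDR 0.331) for Cnp and -0.33 (SE 0.15, FDR 0.143) for Mag. The most abundant of that list, Mbp, was between 12.2 and 14.2 in 15 mice and at 5.36 in WO4. In bulk tissue fewer cells of a type and less RNA per cell cannot be told apart, and the part of these cells in the level of Nid1 was not tested.

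Vascular and glial markers also moved in WO vs. MO. Of 12 endothelial markers 9 fell and 0 rose, with a median log2 fold change of -0.46, among them Tie1 (-0.57), Cdh5 (-0.57) and Pecam1 (-0.50); the most abundant, Ly6c1, was at -0.40 (SE 0.18, FDR 0.132). Their summed level was 183, 166, 163, 113 and 142 FPKM in WO and 101, 109, 110, 121 and 128 FPKM in MO, with WO4 among the MO mice. In young mice it was 156.7, 116.9 and 125.8 FPKM in WY and 119, 121 and 109 FPKM in MY. Of the 12 markers 8 nevertheless had every MY mouse below every WY mouse, against 7.52% of all genes, with 0 calls and a list median of -0.18; Cldn5 (-0.42, SE 0.093, FDR 0.534) and Tie1 (-0.41, SE 0.070, FDR 0.439) differed most. Lamb2, Col4a1 and Hspg2 were lower in the same MY mice, and the part of endothelial cells in this was not tested. Of 10 pericyte markers 2 rose (Anpep 0.70 and Kcnj8 0.29) and 2 fell (Rgs5 -0.58 and Abcc9 -0.31), and the most abundant, Vtn, was at -0.27 (SE 0.20, FDR 0.361). The number of endothelial or pericyte markers with a mean under 0.1 was 0. Smooth muscle markers gave 1 rise, Tagln (1.75, SE 0.16, FDR 3.63e-05), and 1 fall, Myh11 (-0.28), of 6. Of 9 meningeal and perivascular fibroblast markers 1 rose (Islr, 0.30), and the most abundant, Dcn, was at 0.029 (SE 0.12, FDR 0.900).

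Astrocytes lay down part of the laminin of the cord. Of 5 astrocyte markers 4 rose, led by Gfap (1.60, SE 0.10, FDR 1.46e-05), and their summed level was 1128 ± 86.5 FPKM (SD, n = 5) in WO and 2772 ± 364 FPKM (SD, n = 5) in MO. Of 6 microglia markers 5 rose, with Csf1r, the most abundant, at 1.28 (SE 0.086, FDR 1.5e-05), and the sums were 74.1 ± 7.27 FPKM (SD, n = 5) and 158 ± 19.6 FPKM (SD, n = 5). The summed level of each list was higher in every MO mouse than in every WO mouse, as were Nid2, Lamb2 and 11.3% of all genes. Of 6 motor neuron markers 4 fell, led by Chat (-0.67, SE 0.059, FDR 3.13e-05), and of 7 neuron markers 4 fell, led by Slc6a5 (-0.78); Snap25, the most abundant of these, fell by 0.41. The other lists gave 1 fall of 6 for Schwann cells (Foxd3), 1 rise of 4 for sensory neurons (Avil), 1 fall of 6 for skeletal muscle (Acta1), 0 calls of 6 for blood, where Hbb-b2 and Alas2 had an unadjusted p under 0.05 in limma, and 1 fall of 6 for Hox genes (Hoxc8). The median log2 fold change of the blood list was -0.64. Its summed level was 41.7 FPKM in MO1, which also had the lowest Nid1 value, 143 to 231 FPKM in the other MO mice and 241 to 328 FPKM in WO. Without MO5, 8 endothelial and 5 neuron markers fell, 1 pericyte marker rose and 0 skeletal muscle markers fell. The part of each cell type in the changes of the members was not tested.

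The wider machinery of the basement membrane was followed with 7 lists, 77 of whose 81 symbols were measured. In WO vs. MO 39 of the 77 rose and 9 fell, beside 15% and 12.9% of all genes; without MO5 38 rose and 8 fell, and with batch 1 alone 27 and 4. Laminin chains outside the 10 genes included 1 fall, Lama1 (-0.14), and the most abundant, Lama5, was at -0.034 (SE 0.077, FDR 0.801). Of the 4 other collagen IV chains Col4a6 rose (0.18, SE 0.052, FDR 0.0248), which was lost without MO5, and Col4a5, the most abundant, was at 0.061 (SE 0.072, FDR 0.592). Of 14 other components 4 rose and 3 fell. Npnt, the integrin ligand nephronectin, rose by 0.74 (SE 0.077, FDR 7.67e-05), and Sparc, a collagen-binding glycoprotein and the most abundant of the list, by 0.58 (SE 0.096, FDR 0.00129). The falls were those of Hmcn1 (-0.39), Ntn4 (-0.31) and Tinagl1 (-0.53).

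Of 16 collagen-processing enzymes and chaperones 7 rose and 1 fell, with P4ha3, a prolyl 4-hydroxylase subunit, up by 1.01 (SE 0.12, FDR 0.000148) and P4hb, the most abundant, by 0.23 (SE 0.045, FDR 0.00391). With batch 1 alone 3 of the 16 rose and 0 fell. Of 15 receptors 10 rose and 2 fell, and with batch 1 alone 5 rose. Among them the syndecans Sdc4 (0.81, SE 0.082, FDR 6.49e-05) and Sdc1 (0.61, SE 0.049, FDR 2.18e-05) rose and Itgb4, the integrin beta 4 chain that pairs with alpha 6, fell (-0.69, SE 0.11, FDR 0.000991). Itga6, the alpha 6 chain, rose (0.39, SE 0.077, FDR 0.00383). Of 14 matrix proteases 10 rose and 2 fell: cathepsin S (Ctss, 2.14, SE 0.22, FDR 7.98e-05), urokinase (Plau, 2.05, SE 0.23, FDR 0.000129) and Mmp12 (1.67, SE 0.25, FDR 0.000631) rose most, and Mmp9 (-0.70, SE 0.068, FDR 5.05e-05) and Adamts4 (-0.51) fell. Of 8 protease inhibitors 6 rose and 0 fell, with Timp1, an inhibitor of metalloproteinases, up by 3.67 (SE 0.24, FDR 1.46e-05) and Cst3, the most abundant, by 0.61 (SE 0.097, FDR 0.00101). In WY vs. WO 1 of the 77 was called, Plat, which encodes tissue plasminogen activator (-0.67, SE 0.071, FDR 0.0115), and in WY vs. MY 0 were; by list, the medians in WY vs. WO ran from -0.17 (proteases) to 0.081 (laminin chains).

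The 10 genes are spread over 8 chromosomes of GRCm38. Nid1 is at chr13:13437551-13512269 on the + strand and Nid2 at chr14:19751265-19811787 (+). Lama2 (chr10:26980036-27619758, -) and Lama4 (chr10:38965515-39110188, +) share chromosome 10, Lamb1 is at chr12:31265234-31329644 (+), Lamb2 at chr9:108479736-108490530 (+), Lamc1 at chr1:153218922-153332786 (-) and Hspg2 at chr4:137468769-137570630 (+). Col4a1 (chr8:11198423-11312826, -) and Col4a2 (chr8:11312805-11449287, +) overlap by 22 bases at their starts. Exons of Nid1 share 143 of 6943 bases with the antisense gene Gm48682, those of Lama2 631 of 16338 with Gm48084 and those of Col4a2 43 of 6619 with Gm15419, so that without strand these reads cannot be told apart.

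Promoter windows of RefSeq (GRCm38.p6), from 250 bases before to 50 after a start, were matched for 7 of the 10 genes: Nid1, Lama2, Lamb1, Lamb2, Col4a1, Col4a2 and Hspg2. The starts of these windows are not always the gene starts given above. The Lama2 window (chr10:27616893-27617192, -) lies inside the annotated gene, and the Lamb2 window begins 124 bases before the annotated start. The GC box was searched as GGGCGG, the CAAT box as CCAAT and the TATA box as TATAAA, on both strands. The GC box letters occurred in 6 of the 7 windows and in 35.7% of all 32851 windows, those of the CAAT box in 4 and in 37.4%, and those of the TATA box in 0 and in 13.6%. The part before the annotated transcripts is shown for Nid1 and Lamb2, which moved in opposite directions, and for Col4a1 and Col4a2, which moved together, the stretch that both genes transcribe, at chr8:11312805-11312826 on the + strand. The Nid1 stretch is chr13:13437352-13437550 (+) and the Lamb2 stretch chr9:108479612-108479735 (+); capitals mark the GC box and CAAT box letters on either strand, of which the Lamb2 stretch has 0.
Nid1: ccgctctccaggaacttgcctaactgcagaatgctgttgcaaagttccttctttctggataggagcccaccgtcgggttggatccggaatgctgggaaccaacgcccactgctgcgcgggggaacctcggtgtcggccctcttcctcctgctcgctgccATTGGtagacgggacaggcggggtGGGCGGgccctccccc
Lamb2: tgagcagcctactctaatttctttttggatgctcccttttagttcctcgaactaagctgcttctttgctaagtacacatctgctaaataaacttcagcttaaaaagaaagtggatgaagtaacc
Col4a1 and Col4a2: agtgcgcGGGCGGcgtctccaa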

How the data were processed

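Spinal cord RNA of 16 mice (4 groups, 1 library each, TruSeq Stranded mRNA) was measured. The log2 values were deposited by the authors: reads were trimmed (Trimmomatic), aligned to mm10 (TopHat) and summarised per gene as FPKM (Cufflinks), 1 was added, log2 taken, genes at 0 in at least 8 mice removed, and batches adjusted with ComBat, which can leave values below 0 and whose covariates are not given in the sources used here. No depth is held in the table. Groups, ages and batches came from the labels.

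Each pair of groups was fitted on its own over all 18167 genes with limma 3.58.1 in R 4.3.3 (lmFit, eBayes, two-sided, Benjamini-Hochberg FDR), without covariates, after the procedure was tested on simulated data. Calls were FDR at or below 0.05, and the same with a fold change of at least 1.5. MY vs. MO was not tested. Members and lists were chosen with earlier results of these data known. Named genes were the members; the most abundant gene of each list and up to 3 of its largest changes in each direction past both thresholds in WO vs. MO; the 5 genes most like Nid1 by each measure; and Xist and Ddx3y. Some genes that these rules pick are not reported here. Other genes were named after their values were seen. Alternatives were leaving out each mouse, batch 1 alone, batch as a term, the replicate number as a block, a mean of at least 1, quantile normalization, all groups in 1 fit, an intensity trend and a pseudocount of 0.1 (values below 0 FPKM set to 0). Summaries used Python 3.11.15 with pandas 2.3.3.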

Additional observations from a re-analysis of the deposited data

Results flagged for a closer look

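Groups of 5 mice were examined for a single mouse far from the others in 110 sets (10 members and the other genes named by rule, in WO and MO), of which chance picks about 1 in 20. Lama2 in MO1 was 1.448, against 1.182 to 1.254 in the other MO mice. Mylpf in WO3 was 1.991, against 1.484 to 1.627, and Mbp in WO4 was 5.355, against 12.42 to 14.22 in the other WO mice.

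Lamb2 was lower in every MY than in every WY mouse (-0.14) and higher in every MO than in every WO mouse (0.4044). The 55 genes scanned were the members and those named by rule. Among them the same held for Npnt (-0.13 in young and 0.738 in old mice), P4ha3 (-0.25 and 1.011), Gfap (-0.20 and 1.604), Aqp4 (-0.26 and 0.8331), Aldh1l1 (-0.076 and 0.6859) and Aif1 (-0.35 and 1.747). That is 7 of 55, against 217 of all 18167 genes (1.19%) and 13 of the 181 measured members and list genes. Genes named by rule were picked in part for a large change in WO vs. MO, so the shares are not alike in kind.

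Between ages, groups moved apart in opposite directions in the genotypes for Npnt (-0.23 in WY vs. WO and 0.6319 in MY vs. MO), Sdc1 (-0.21 and 0.4214), Gfap (-0.54 and 1.261), Aqp4 (-0.65 and 0.4392) and Aldh1l1 (-0.14 and 0.6229), and the other way for Chat (0.44 and -0.4096) and Snap25 (0.23 and -0.2679). These are 5 and 2 of the 55 genes, against 189 (1.04%) and 154 (0.848%) of all genes and 10 and 4 of the members and list genes. MY vs. MO was not tested for any gene, nor was whether a difference changed between ages or between genotypes.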

How the results depend on the processing

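In WO vs. MO Nid1 and Lamb2 passed FDR 0.05 in 18 of 18 alternatives and Nid2 in 17 of 17, while Lama4 passed in 8 of 17. The number of members that fell was 1 with batch 1 alone and 1 to 3 on leaving out each mouse, and the number that rose was 1 with genes of a mean of at least 1, since that filter removes Nid2. In WY vs. WO 1 member fell, Nid1, with batch 1 alone, with batch as a term of the fit and with the replicate block, and 0 to 1 on leaving out each mouse. No WY mouse shares a batch or replicate number with WO4 and WO5. Batch 1 alone, the batch term and the replicate block therefore rest on the same difference, without WO4 and WO5. In MY vs. MO the members with all MO below all MY mice numbered 5 after quantile normalization (21% of all genes), 6 with batch 1 alone (21.2%) and 2 to 6 on leaving out each mouse (16.7% to 18.7%). Of the genes of the pathway lists 4 fell in WO vs. MO with batch 1 alone, where fewer mice were tested.

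Signs turned only for changes that had not passed the test. In WO vs. MO with batch 1 alone these were Lama2 (0.0014), Lama5 (0.063), Dcn (-0.21) and Mbp (-0.32, FDR 0.0242). In WY vs. WO they were Nid2 (0.045 with batch 1 alone, batch as a term or the replicate block, and up to 0.018 without WO4) and Col4a2 (0.052 without WO3, 0.073 without WY1). In WY vs. MY they were Nid2 (0.0040 after quantile normalization, 0.015 without MY3, 0.0055 without WY2), Lama4 (0.0047 and 0.0044 without MY3 and WY1) and Lamc1 (-0.0069 and -0.026 without MY1 and MY2). The cause was not tested. On leaving out each mouse, the ranges were -0.035 to 0.018 for Nid2 and -0.13 to 0.073 for Col4a2 in WY vs. WO, and -0.024 to 0.015 for Nid2, -0.072 to 0.0047 for Lama4 and -0.026 to 0.083 for Lamc1 in WY vs. MY.

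Over all tested comparisons and members, 160 of 178 alternatives in WO vs. MO and 148 of 158 in WY vs. WO kept the direction and side of the threshold, and in WY vs. MY all but 7 did. The replicate numbers gave no strong pairing of the mice: correlations between same-numbered mice of their deviations from group means ran from -0.21 to 0.091 in WO vs. MO, from -0.13 to 0.38 in WY vs. WO, from -0.20 to -0.019 in WY vs. MY and from 0.085 to 0.18 in MY vs. MO, which was not tested. With the replicate block 2 members rose and 2 fell in WO vs. MO (Col4a1 in place of Lama4). Depth per gene is not known from the table, also for Nid2 and Lama4, which were at under 1 FPKM on average.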
